A study of Mus musculus with 18 samples.

Results

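The 41 genes described here are a curated list of interferon-stimulated genes, chosen by symbol from the 46257 gene IDs of the deposited table. All 41 had 1 row each, and all 41 were among the 22315 genes that passed the filter on low values. From the mouse mammary gland, 3 cell populations had been isolated by fluorescence-activated sorting and their RNA sequenced at 3 stages, as 9 groups with 2 libraries each. They were basal cells, which contract around the ducts and alveoli, ER+ luminal cells, which carry the estrogen receptor, and ER- luminal cells, which include precursors of milk-producing cells, each at puberty, in adulthood and at mid pregnancy. Every group had the same genotype, ERrtTA/TetOCre/rosaYFP, which joins a tetracycline-responsive transactivator, a tetracycline-operated Cre and a Cre-activated yellow fluorescent reporter. The cells in which the transactivator is active, any doxycycline given, the sorting gates, ages and strain are not stated in the labels. The title of each basal sample names basal cells, but the cell type label of those from puberty and pregnancy reads BC luminal cells. Over the stages, defining markers went with the titles: 9 of 10 ER+ luminal markers were higher and 9 of 10 ER- luminal markers were lower in ER+ than in ER- luminal cells, and 10 of 10 basal markers were higher in basal than in luminal cells. The pregnancy ER+ library of replicate 2 was mixed by this measure. Its 10 ER- luminal markers summed to 126533, against 135905 and 66643 in pregnancy ER- libraries and 53788 in the other pregnancy ER+ library, while its 10 ER+ luminal markers summed to 39493, against 7315 and 8194 in pregnancy ER- libraries. For the comparisons that use this library, the count of called members is also given without it. Counts of libraries that do not overlap, of genes shared between populations, by motif or role and of other gene lists are given only with it. Basal libraries held luminal marker signal as well. ER- luminal markers summed to 61349 and 40382 in adult basal libraries and 53273 and 69390 in pregnancy basal ones. In puberty basal libraries they summed to 15782 and 20924. ER+ luminal markers summed to 35573 in the puberty basal library of replicate 2, against 9331 in that of replicate 1 and 22640 and 18792 in puberty ER- libraries.

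Interferons are secreted proteins that cells release on sensing foreign or misplaced nucleic acids. Type I and type III interferons act through receptors and Janus kinases on a transcription factor complex that includes STAT2 and IRF9, binds an interferon-stimulated response element and switches on genes that block viral replication, present antigen and feed back on the pathway. Interferon gamma acts mainly on genes with a gamma-activated site, and epithelia keep a part of this programme on at a basal level.

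The promoters of the genes show these elements. A window of 300 bases, 250 before the start site and 50 from it on (RefSeq, build GRCm38.p6), was matched by symbol for 30 of the 41 genes. The other 11 (Dhx58, Zbp1, Oas2, Usp18, Mx1, Mx2, Rtp4, Parp9, Parp14, Ifi27 and Ifi27l2a) are named only. The core of the response element, searched as GAAA, any 2 bases and GAAA again, on both strands with overlaps allowed, was present in the windows of 15 of the 30 genes (50%), against 1079 of 27025 genes with a window (3.99%). The gamma-activated site, searched as TTCNNNGAA on both strands, was present in 8 of the 30 (26.7%), against 9.55% of all genes, and 4 genes had both. The list was built from genes known to respond to interferon, so this is a description of it. The response element matched 2 or more times in 7 genes, Isg15, Ifit1, Ifit3, Ifit3b, Oas1a, Bst2 and Gbp3. The windows of 5 of these are printed in the direction of the gene, with the matches in capitals, because they belong to the genes with some of the widest differences between stages. They lie at chr4:156200769-156201068 (minus strand) for Isg15, chr19:34640639-34640938 (plus) for Ifit1, chr19:34583279-34583578 (plus) for Ifit3, chr19:34607707-34608006 (plus) for Ifit3b and chr5:120907476-120907775 (minus) for Oas1a.
Isg15: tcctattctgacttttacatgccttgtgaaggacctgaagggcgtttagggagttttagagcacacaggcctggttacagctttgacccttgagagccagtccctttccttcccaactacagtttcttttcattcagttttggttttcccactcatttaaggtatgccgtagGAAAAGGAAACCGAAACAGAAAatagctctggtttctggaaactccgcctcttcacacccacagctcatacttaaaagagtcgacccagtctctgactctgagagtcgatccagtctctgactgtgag
Ifit1: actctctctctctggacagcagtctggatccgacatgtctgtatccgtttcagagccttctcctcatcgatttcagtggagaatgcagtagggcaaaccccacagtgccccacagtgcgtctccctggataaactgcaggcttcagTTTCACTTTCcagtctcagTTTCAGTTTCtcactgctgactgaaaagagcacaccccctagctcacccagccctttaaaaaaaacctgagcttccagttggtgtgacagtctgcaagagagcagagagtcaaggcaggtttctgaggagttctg
Ifit3: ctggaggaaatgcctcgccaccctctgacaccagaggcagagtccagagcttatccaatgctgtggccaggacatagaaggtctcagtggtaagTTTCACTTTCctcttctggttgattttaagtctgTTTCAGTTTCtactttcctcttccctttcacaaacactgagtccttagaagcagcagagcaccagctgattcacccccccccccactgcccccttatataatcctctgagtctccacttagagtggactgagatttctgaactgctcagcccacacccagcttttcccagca
Ifit3b: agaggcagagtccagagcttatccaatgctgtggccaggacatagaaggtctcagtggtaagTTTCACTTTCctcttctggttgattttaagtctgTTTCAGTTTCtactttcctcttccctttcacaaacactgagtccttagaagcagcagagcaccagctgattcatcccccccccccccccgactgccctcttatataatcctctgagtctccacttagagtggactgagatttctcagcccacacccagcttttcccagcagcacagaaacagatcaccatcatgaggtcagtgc
Oas1a: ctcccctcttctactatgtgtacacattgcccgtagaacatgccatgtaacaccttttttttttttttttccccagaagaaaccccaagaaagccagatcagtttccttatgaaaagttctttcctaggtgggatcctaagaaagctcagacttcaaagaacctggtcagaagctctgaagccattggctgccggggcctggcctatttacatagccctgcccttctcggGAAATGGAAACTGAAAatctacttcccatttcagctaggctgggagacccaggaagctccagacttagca
In Isg15 the 3 matches run into each other. In Oas1a they overlap as a pair, starting 20 and 14 bases before the start site. The windows of Ifit3 and Ifit3b aligned over 260 bases, 258 of them identical (99.2%), with the matches 34 bases apart in each. Reads of such close copies may be split between them by the authors' counting, which also holds for Oas1a, the Gbp genes and Ifi27l2a, so their values are uncertain.

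**Figure D1:**
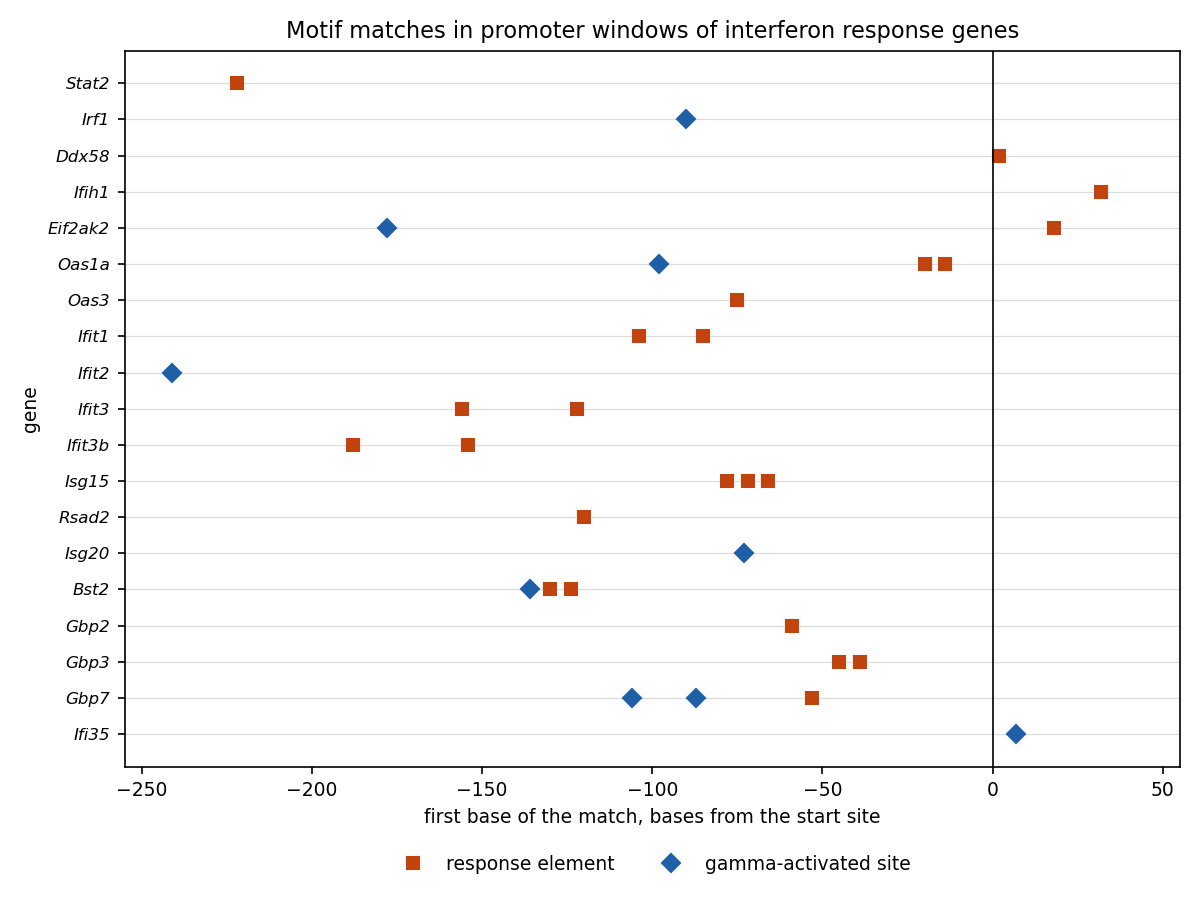
First base of each match (bases from the start site, x axis) in the windows of the genes with at least 1 match, squares for the response element and diamonds for the gamma-activated site. Of the 30 windows, 15 hold a response element, most of them before the start site.

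The genes lie on 14 chromosomes, several of them side by side (positions from the GENCODE annotation of GRCm38). Ifit1, Ifit2, Ifit3 and Ifit3b are on chromosome 19 from 34550694 to 34650009. Oas1a, Oas2, Oas3, Oasl1 and Oasl2 are on chromosome 5. Gbp2, Gbp3 and Gbp7 lie on chromosome 3 from 142530342 to 142638008, and Rsad2 and Cmpk2 neighbour each other on chromosome 12. The gene spans of Dtx3l (chromosome 16, 35926511 to 35939151, minus strand) and Parp9 (35938470 to 35972605, plus strand) overlap at their starts. Since no source states whether counting used strand, reads in that overlap cannot be told apart.

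Values are the deposited signal, which was read counts scaled to a common total near 20000000 per library. One read was worth 1.75 to 2.59 in the puberty libraries (7674857 to 11292236 reads in genes), 3.12 to 3.75 in pregnancy (5280348 to 6363534), 2.51 and 4.69 in adult basal libraries and 6.26 to 8.25 in adult luminal libraries (2406221 to 3165239), so low values of adult luminal cells are the least precise. Mitochondrial transcripts took 4.73% to 7.07% of the adult luminal libraries and at most 3.26% of the others. Rows of repeated gene IDs put the libraries in 3 sets, the 8 from puberty and adult basal cells, the 4 adult luminal ones and the 6 from pregnancy. All 49 rows of 10 such IDs differed from the highest value of their ID in all or none of the libraries of each set. In 11 of these rows the highest value stood in every library, so those could not show a switch. Also, 6 genes were at 0 in the adult luminal set and at 100 or more in every other library, and 6 the reverse. In luminal cells, and for pregnancy in all cells, stage and set cannot be told apart. Adult and puberty basal cells belong to the same set, and for adult basal against adult luminal cells population and set cannot be told apart either. No member was at 0 throughout a set. Whether replicates were separate animals is not in the labels, so the p-values cover no more than the spread of these libraries, possibly a technical one. In bulk samples, fewer cells of a type and less RNA per cell cannot be told apart.

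The genes were highest in ER- luminal cells at puberty. By group mean, 30 of the 41 peaked there. Both puberty ER- libraries lay above all other 16 libraries for 26 members (2.76% of all genes tested did so). The lowest group was pregnancy basal for 18 members and adult ER+ luminal for 14. Averaged over the 41 genes, log2(signal + 1) was 10.08 and 10.55 in puberty ER- libraries, 9.34 and 9.16 in puberty ER+ libraries and 9.0 and 9.55 in puberty basal libraries. The 12 later libraries lay between 7.76 and 8.86. The same average over all genes tested ran from 6.11 to 6.88 over the 18 libraries.

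**Figure D2:**
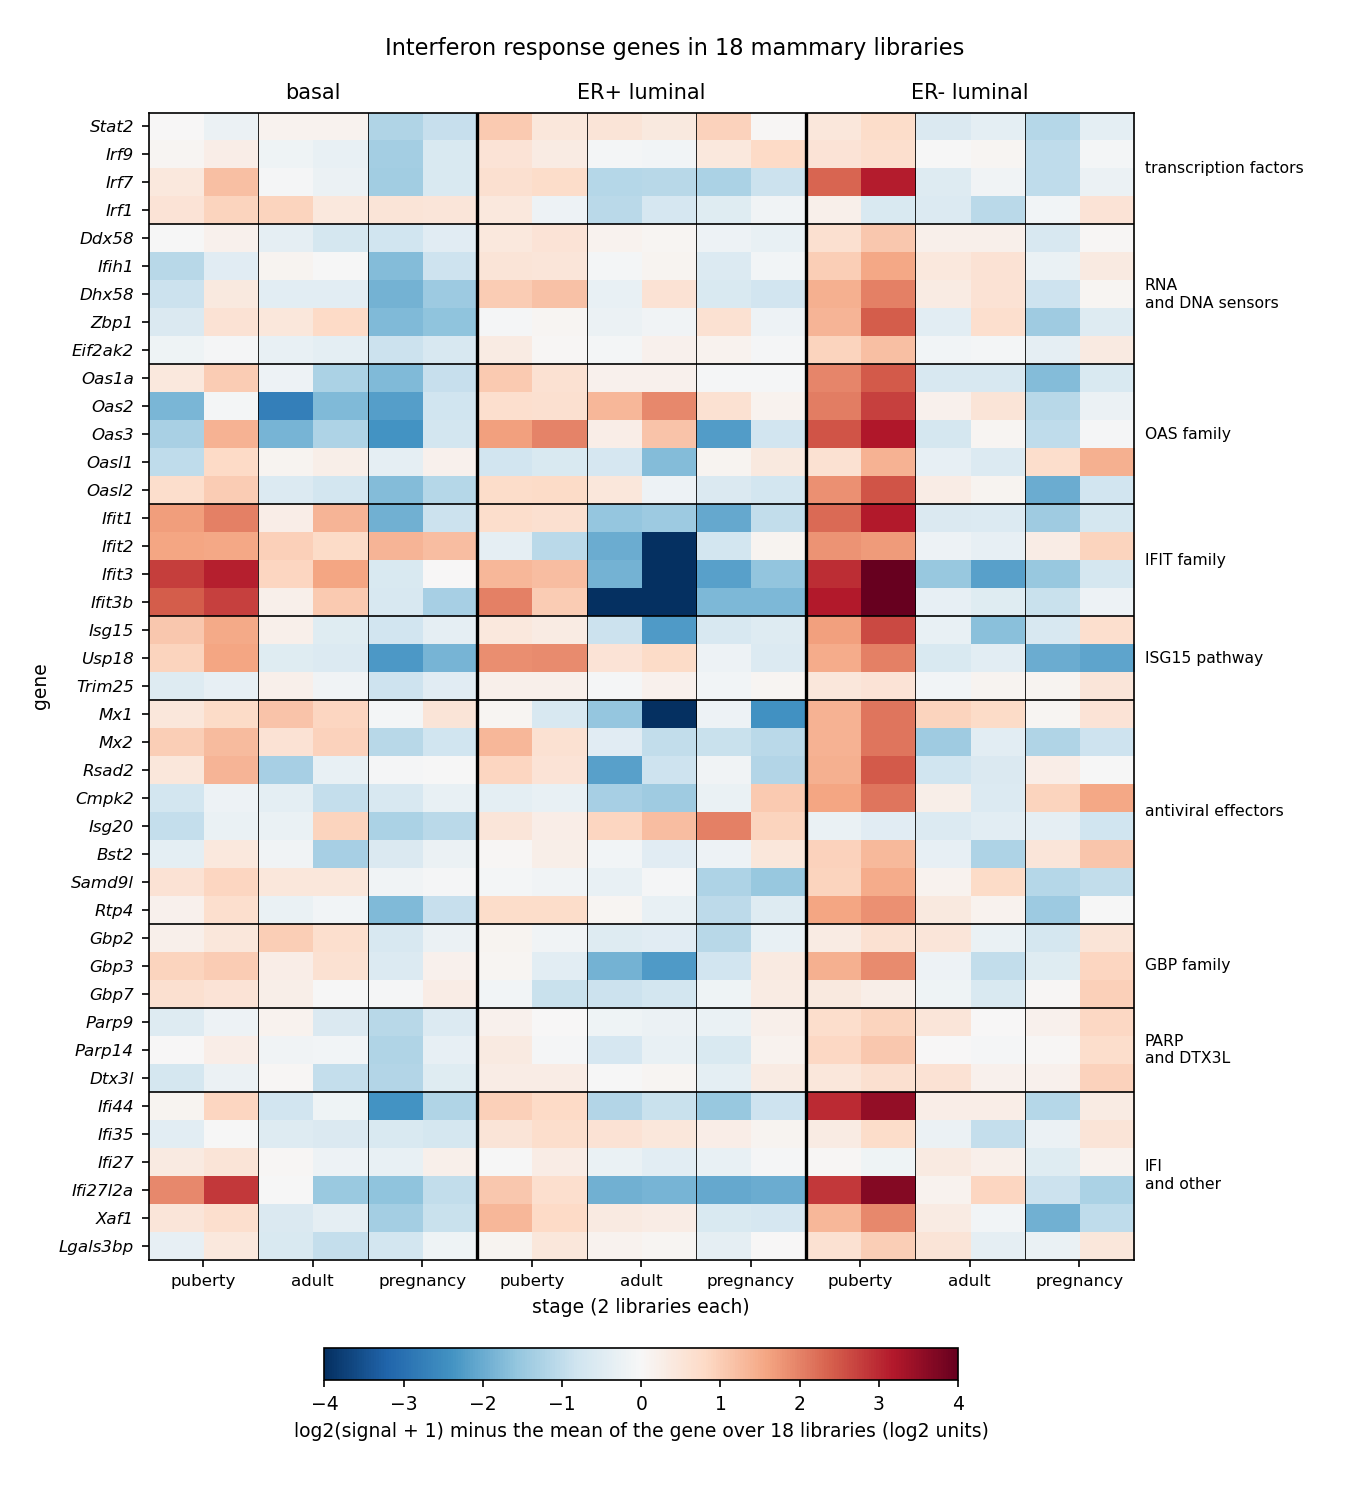
Each row is a gene and each column a library. Colour gives log2(signal + 1) minus the gene's mean over the 18 libraries, in log2 units, and colours are capped at 4 units either side. The 2 columns of puberty ER- luminal cells are the darkest red for most genes, and Ifit3b is darkest blue in adult ER+ luminal cells.

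The transcription factors did not move as 1 block. Irf7, the factor that amplifies the response, had a signal of 3318 and 5819 in puberty ER- luminal cells (replicates 1 and 2, as in every pair of values), 464 and 602 in adults and 327 and 564 in pregnancy. In ER+ luminal cells it had 1030 and 1092 at puberty, 295 and 306 in adults and 272 and 362 in pregnancy. Basal cells had 885 and 1513, 639 and 554 and 251 and 434 in the same order. Each puberty library was thus above every later library of any population, and in ER- cells the drop was the deepest in value. Irf7 was lower in pregnancy than at puberty in ER+ cells (log2 fold change of signal + 1 of -1.75 ± 0.34 SE, adjusted p = 0.00289), in ER- cells (-3.35 ± 0.34, adjusted p = 3.53e-05) and in basal cells (-1.81 ± 0.34, adjusted p = 0.0127; limma, Benjamini-Hochberg over 22315 genes, here and for every adjusted p).

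Irf9, the DNA-binding partner of STAT2, ranged less. It had 2240 and 2444 in puberty ER- cells, 1500 and 1604 in adults and 757 and 1439 in pregnancy. In basal cells it had 1597 and 1835, 1342 and 1238 and 597 and 994, and in ER+ cells 2209 and 1930, 1435 and 1411 and 2052 and 2668. It fell in pregnancy in ER- cells (-1.16 ± 0.26, adjusted p = 0.0086) and basal cells (-1.15 ± 0.26, adjusted p = 0.0332), while the pregnancy ER+ libraries overlapped those from puberty. Stat2 itself had 2417 and 1609 in puberty ER+ cells, 1668 and 1543 in adults and 2230 and 1215 in pregnancy. ER- cells had 1589 and 1935, 784 and 890 and 535 and 887, and basal cells 1173 and 1001, 1292 and 1280 and 508 and 616. Over the stages Stat2 was higher in ER+ than in ER- cells (0.79 ± 0.16, adjusted p = 0.00196), which set it apart from Irf7 (-1.10 ± 0.20, adjusted p = 0.000686).

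Irf1, which is induced mainly by interferon gamma, was called in none of the 6 comparisons with puberty. It had 4630 and 5829 in puberty basal cells, 5853 and 4200 in adults and 4502 and 4464 in pregnancy. ER+ cells had 4243 and 2726, 1505 and 1988 and 2236 and 2884, and ER- cells 3662 and 2051, 2175 and 1504 and 2934 and 4619. Basal cells had more Irf1 than luminal cells (0.94 ± 0.16, adjusted p = 0.000368), and pregnancy ER- cells more than adult ER- cells (1.02 ± 0.32, adjusted p = 0.0484). Per kilobase of exon, Irf1 had the highest mean level of the 41 genes (865 per kilobase over 18 libraries), followed by Ifi27 (723) and Lgals3bp (681), and Mx1 had the lowest (9.72).

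**Figure D3:**
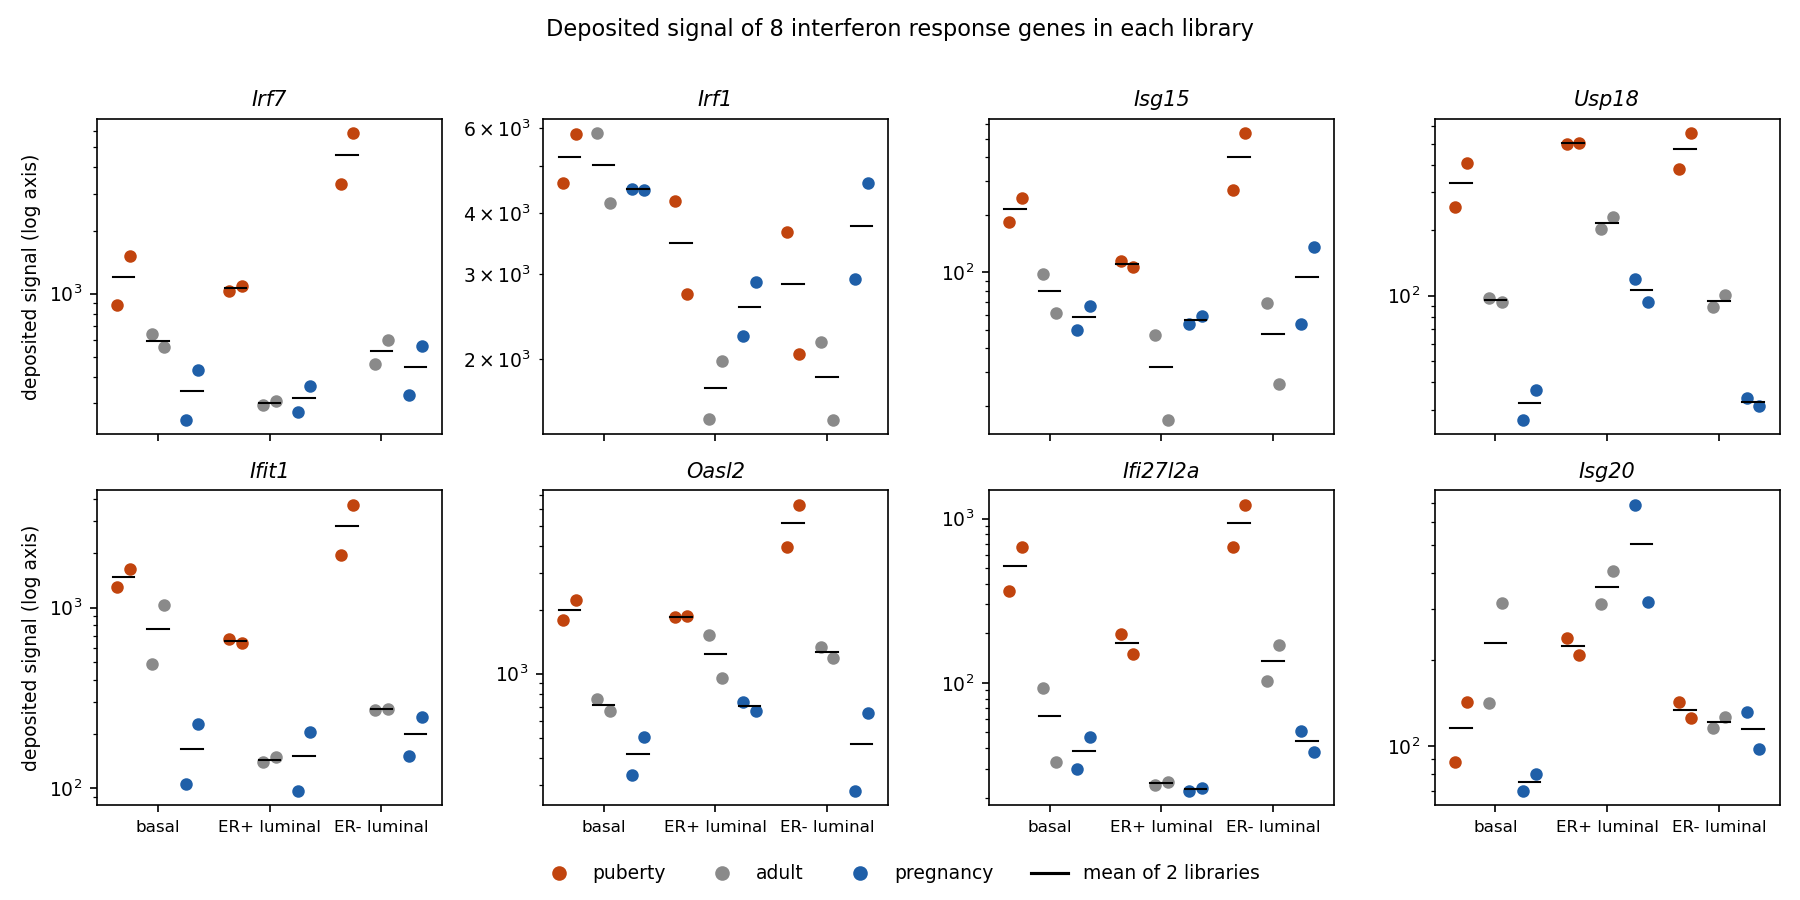
Deposited signal (log axis) of 8 genes in each of the 18 libraries, by population and stage, with bars at the mean of 2 libraries. Irf7, Usp18 and Oasl2 are higher in every puberty library than in any later one, whereas Irf1 and Isg20 show no such order.

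The RNA and DNA sensors had their highest values in puberty ER- cells, all 5 of them in both libraries above the other 16. Ddx58, which encodes the RNA sensor RIG-I, had 3650 and 4978 there, 2672 and 2676 in adult ER- cells and 1498 and 2407 in pregnancy. ER+ cells had 3107 and 3432, 2560 and 2466 and 2034 and 1886, and basal cells 2301 and 2599, 1799 and 1421 and 1331 and 1689. All 5 sensors fell in pregnancy against puberty in ER- cells, from -1.05 ± 0.21 for Eif2ak2 (the kinase PKR, which halts translation on double-stranded RNA) to -2.87 ± 0.46 for Zbp1 (a sensor of Z-form nucleic acids). In ER+ cells 2 of the 5 fell, Ddx58 (-0.74 ± 0.21, adjusted p = 0.0304) and Dhx58, the RIG-I relative LGP2 (-1.79 ± 0.42, adjusted p = 0.00925), and in basal cells none of the 5 was called, with estimates from -1.69 to -0.50.

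The oligoadenylate synthetases make the messenger that activates RNase L. Oas2 had 1207 and 1949 in puberty ER- cells, 328 and 420 in adults and 135 and 248 in pregnancy. In ER+ cells it was highest in adults, with 471 and 461 at puberty, 737 and 1106 in adults and 443 and 323 in pregnancy. Basal cells had 82 and 280, 43 and 85 and 63 and 169, so basal cells had less Oas2 than luminal cells (-2.35 ± 0.29, adjusted p = 2.23e-05), as they did of Oas3 (-1.53 ± 0.40, adjusted p = 0.00637). The puberty basal libraries were far apart for Oas2, and for Oas3 (31 and 207). Oasl2, an OAS-like protein, had 3959 and 6280 in puberty ER- cells, 1343 and 1185 in adults and 280 and 650 in pregnancy. ER+ cells had 1853 and 1863, 1521 and 957 and 736 and 666, and basal cells 1784 and 2234, 757 and 666 and 333 and 504. It was among 6 members, with Irf7, Oas1a, Usp18, Rsad2 and Xaf1, whose 6 puberty libraries all lay above the 12 later ones (0.318% of all genes). Oasl1 did not share this pattern: its highest group mean was in pregnancy ER- cells, with 182 and 297, against 169 and 295 at puberty.

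The IFIT proteins bind RNA that lacks the marks of host messenger RNA. Among genes with signal in every group, Ifit3 had the widest range of group means (108-fold), with few reads in its lowest group. Ifit2 (27.1-fold) and Ifit1 (19.6-fold) ranged less than Ifi27l2a (41.9-fold) and Ifi44 (31.3-fold). Ifit1 had 1955 and 3703 in puberty ER- cells, 273 and 276 in adults and 152 and 248 in pregnancy. In basal cells it had 1305 and 1634, 490 and 1036 and 106 and 226, and in ER+ cells 666 and 634, 140 and 149 and 97 and 204. The adult basal values of Ifit1 lay above the adult luminal ones, which belong to another set of columns and have fewer reads. Ifit3 had 490 and 1234 in puberty ER- cells, 21 and 13 in adults and 21 and 38 in pregnancy. Basal cells had 426 and 544, 114 and 188 and 40 and 63, and ER+ cells 159 and 148, 16 and 0 and 13 and 20. The adult ER+ value rests on 2 reads over both libraries, against 140 at puberty, which is a ratio of 19.2 of puberty over adult (95% exact counting interval 5.22 to 160). Its close copy Ifit3b had no read in either adult ER+ library, against 111 and 55 in signal at puberty, and was at least 7.23-fold lower in adult than in puberty ER+ cells (floor of 3 reads over the group). Such intervals and floors cover counting error only. Ifit2 was called in none of the comparisons with puberty, where its standard error was 1.26. It had 658 and 616 in puberty ER- cells, 164 and 151 in adults and 229 and 346 in pregnancy, and both puberty ER- libraries lay above all others. Basal cells had 566 and 554, 362 and 319 and 488 and 444, and ER+ cells 145 and 88, 47 and 0 and 113 and 201, so the replicates were far apart in adult ER+ cells.

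ISG15 is a ubiquitin-like tag that interferon-treated cells put on proteins. Isg15 had 269 and 534 in puberty ER- cells, 69 and 26 in adults and 54 and 136 in pregnancy. ER+ cells had 115 and 107, 47 and 17 and 54 and 59, and basal cells 183 and 245, 98 and 61 and 50 and 67. It fell in ER- cells, in adults (-3.13 ± 0.58, adjusted p = 0.00641) and in pregnancy (-2.13 ± 0.58, adjusted p = 0.023), both against puberty. Usp18 removes ISG15 from proteins and restrains the type I interferon receptor. It had 500 and 505 in puberty ER+ cells, 202 and 231 in adults and 119 and 94 in pregnancy. ER- cells had 382 and 557, 89 and 101 and 34 and 31, and basal cells 256 and 406, 98 and 94 and 27 and 37. In each population the stages followed each other downwards without overlap. Usp18 was also higher in ER+ than in ER- cells (0.99 ± 0.19, adjusted p = 0.00102), the opposite of Isg15 (-0.97 ± 0.34, adjusted p = 0.0437). Trim25, a ubiquitin ligase that activates RIG-I, was called in none of the 6 comparisons with puberty.

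Among the antiviral effectors, Mx1 had few reads. It had 68 and 116 in puberty ER- cells, 48 and 44 in adults and 27 and 38 in pregnancy, and no other group exceeded 58. Adult ER+ cells had 1 read of it over both libraries. Mx1 was lower in ER+ than in ER- cells (-2.54 ± 0.51, adjusted p = 0.0017), and both genes of the pair, Mx1 and Mx2, which encode GTPases that trap viral particles, are defective in many laboratory mouse strains. Mx2, listed as a polymorphic pseudogene in the annotation, fell in pregnancy against puberty in all 3 populations. Bst2, which tethers budding virus to the cell, had 843 and 1077 in puberty ER- cells, 348 and 188 in adults and 623 and 954 in pregnancy. ER+ cells had 456 and 518, 412 and 322 and 384 and 598, and basal cells 337 and 592, 402 and 174 and 294 and 378. In ER- cells Bst2 was thus lowest in adults, lower there than at puberty (-1.89 ± 0.41, adjusted p = 0.0185) and higher in pregnancy than in adults (1.59 ± 0.41, adjusted p = 0.0199). Cmpk2, a mitochondrial nucleotide kinase, did the same, at -2.02 ± 0.40 in adults against puberty (adjusted p = 0.00975) and 1.38 ± 0.40 in pregnancy against adults (adjusted p = 0.0317). Its neighbour Rsad2, which encodes viperin, had 480 and 990 in puberty ER- cells, 103 and 120 in adults and 216 and 177 in pregnancy, and was lower in adults than at puberty in all 3 populations. The exonuclease gene Isg20 ran against the rest: it was higher in ER+ than in ER- cells (1.44 ± 0.24, adjusted p = 0.000359), with 237 and 207 in ER+ cells at puberty, 311 and 405 in adults and 690 and 317 in pregnancy, against 98 to 142 over the 6 ER- libraries.

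Guanylate-binding proteins are GTPases that attack vacuoles holding microbes and respond strongly to interferon gamma. Gbp2 had 1329 and 1571 in puberty basal cells, 2309 and 1838 in adults and 741 and 977 in pregnancy. ER+ cells had 1243 and 1040, 799 and 850 and 537 and 947, and ER- cells 1459 and 1774, 1609 and 953 and 704 and 1653. Gbp2 and Gbp7 were called in none of the comparisons with puberty. Gbp3 had 1164 and 1626 in puberty ER- cells, 382 and 220 in adults and 310 and 797 in pregnancy. ER+ cells had 467 and 329, 117 and 91 and 259 and 562, and basal cells 814 and 878, 531 and 666 and 300 and 494. Gbp3 fell in adults against puberty in ER+ cells (-1.92 ± 0.45, adjusted p = 0.0229) and ER- cells (-2.24 ± 0.45, adjusted p = 0.0133), and in pregnancy against puberty in ER- cells (-1.47 ± 0.45, adjusted p = 0.0429). Parp9, its partner Dtx3l and Parp14, which take part in ADP-ribosylation and ubiquitination, were called in none of the comparisons with puberty. Parp9 (-0.55 ± 0.16, adjusted p = 0.0194) and Parp14 (-0.62 ± 0.17, adjusted p = 0.0175) were lower in ER+ than in ER- cells, and Parp9 and Dtx3l lower in basal than in luminal cells.

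The last group held both stable and strongly changing genes. Ifi27l2a, a small membrane protein of the ISG12 family, had 671 and 1214 in puberty ER- cells, 103 and 170 in adults and 51 and 38 in pregnancy. ER+ cells had 199 and 150, 24 and 25 and 22 and 23, and basal cells 360 and 667, 93 and 33 and 30 and 47. At most 1.4% of all genes could be lower than at puberty in all 6 comparisons, the share lower in pregnancy basal cells. Usp18 and Ifi27l2a were the 2 members that were. Its neighbour Ifi27, of the same family, had 1064 and 928 in puberty ER- cells, 1323 and 1191 in adults and 744 and 1153 in pregnancy. ER+ cells had 1033 and 1270, 854 and 767 and 846 and 998, and basal cells 1337 and 1488, 1068 and 905 and 847 and 1189. The means of its highest and lowest groups differed 1.74-fold, the narrowest range of the 41 genes, against 41.9-fold for Ifi27l2a. Ifi44 had 4170 and 6017 in puberty ER- cells, 634 and 633 in adults and 239 and 654 in pregnancy, and its mean in puberty ER- cells was 5.33 times that of the next highest group, the widest such step of the 41. Lgals3bp, a secreted glycoprotein, had 2804 and 3642 in puberty ER- cells, 2618 and 1423 in adults and 1511 and 2490 in pregnancy. ER+ cells had 1960 and 2494, 2002 and 1947 and 1438 and 1844, and basal cells 1467 and 2434, 1201 and 933 and 1087 and 1613. It was called in none of the comparisons with puberty.

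Pregnancy was compared with puberty within each population, across all genes tested. In ER- luminal cells 25 of the 41 genes were lower in pregnancy (6.04% of all genes were) and none was higher (8.78% of all genes). The median log2 fold change of the 41 genes was -1.44, against 0.03 over all genes tested. The largest falls were Ifit3 (-4.73 ± 0.93, adjusted p = 0.00464), Ifit3b (-4.36 ± 0.62, adjusted p = 0.000415), Ifi27l2a (-4.33 ± 0.50, adjusted p = 8.5e-05), Ifit1 (-3.79 ± 0.45), Usp18 (-3.79 ± 0.32) and Ifi44 (-3.66 ± 0.47). In pregnancy ER- cells Ifit3 rested on 6 and 10 reads and Ifit3b on 4 and 6. By role, 5 of 5 sensors, 4 of 5 oligoadenylate synthetases, 3 of 4 Ifit genes, 3 of 4 transcription factors and 4 of 8 antiviral effectors fell, against 1 of 3 Gbp genes and 0 of 3 of Parp9, Parp14 and Dtx3l. Of the 15 genes with a response element in the window 12 fell, with a median of -1.47, and of the 15 windowed genes without one 6 fell, with a median of -0.72. In the other populations the counts did not differ this way, with 5 and 5 lower in ER+ cells (medians -0.81 with and -0.42 without the element) and 3 with and 5 without it lower in basal cells (medians -0.95 and -0.51). In puberty ER- cells, 36 of the 41 genes were higher in the library of replicate 2 than in that of replicate 1 (median 1.44-fold; 40.3% of all genes were higher), and without that library 13 genes were called. In pregnancy ER- cells 37 of the 41 were higher in replicate 2 (median 1.63-fold), as were 65.9% of all genes, and that library had the lowest mitochondrial share, 0.615%. Without it 24 genes were called.

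In ER+ luminal cells 15 genes were lower in pregnancy than at puberty (5.73% of all genes) and none was higher (7.34% of all genes). The median was -0.67, against 0.13 over all genes. Ifit3b (-3.31 ± 0.62, adjusted p = 0.0021), Oas3 (-3.30 ± 0.80, adjusted p = 0.0126), Ifit3 (-3.17 ± 0.93, adjusted p = 0.037), Ifi27l2a (-2.89 ± 0.50), Usp18 (-2.24 ± 0.32) and Ifit1 (-2.20 ± 0.45) fell the most. Oas3 had 246 and 311 at puberty, and 16 and 46 in pregnancy. In pregnancy ER+ cells Ifit3b rested on 2 and 2 reads, Ifit3 on 4 and 6, Oas3 on 5 and 14 and Ifi27l2a on 7 and 7, so their sizes are imprecise. The count was 8 without the puberty library of replicate 2, 9 without the pregnancy library of replicate 1 and 11 without the mixed pregnancy library of replicate 2, where Ifit3, Oasl2 and Ddx58 were among those no longer called. In basal cells 12 genes were lower (1.40% of all genes) and none was higher (0.668%), with a median of -0.92, against -0.02 over all genes. Ifi27l2a (-3.67 ± 0.50, adjusted p = 0.00165), Ifit3b (-3.57 ± 0.62), Usp18 (-3.31 ± 0.32, adjusted p = 0.000172), Ifit1 (-3.23 ± 0.45), Ifi44 (-2.28 ± 0.47) and Oasl2 (-2.28 ± 0.34) led. In basal cells of puberty and of pregnancy the replicate 2 library was the higher one for 38 and 37 of the 41 genes (42.3% and 43.5% of all genes). The basal count was 7 and 4 without either puberty library (replicate 1, replicate 2) and 4 without the pregnancy library of replicate 1, whereas DESeq2 on recovered reads called 20. edgeR and DESeq2 on recovered reads also called none of the 41 genes higher in any of these 3 comparisons, and an unadjusted p under 0.05 with a higher estimate was found for 1 gene in ER+ cells and for 0 in ER- and basal cells. In all 3 populations 10 genes were lower (Irf7, Oasl2, Ifit1, Ifit3b, Usp18, Mx2, Rtp4, Ifi44, Ifi27l2a and Xaf1) of 25 lower in any. At most 1.40% of all genes could be lower in all 3, the share lower in basal cells. Of the 10, Oasl2 was no longer called in ER+ cells without the mixed pregnancy library.

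Adults were compared with puberty in the same way. In ER- luminal cells 21 genes were lower in adults (2.42% of all genes) and none was higher (1.24%), with a median of -1.43, against -0.04 over all genes. The largest falls were Ifit3 (-5.47 ± 0.93, adjusted p = 0.00461), Ifit3b (-4.22 ± 0.62), Ifit1 (-3.29 ± 0.45), Oas3 (-3.18 ± 0.80), Isg15 (-3.13 ± 0.58) and Irf7 (-3.05 ± 0.34, adjusted p = 0.000116). In adult ER- cells Ifit3 rested on 3 and 2 reads, Ifit3b on 3 and 3, Oas3 on 7 and 13 and Isg15 on 10 and 4. The sizes and order of these falls are thus imprecise. Without the puberty library of replicate 2 the count was 7. In ER+ luminal cells 10 genes were lower (4.5% of all genes) and none was higher (1.22%), with a median of -0.63, against -0.07 over all genes. Ifit3 and Ifit3b, given above as ratios of reads, were joined by Ifi27l2a (-2.77 ± 0.50), Rsad2 (-2.20 ± 0.50), Ifit1 (-2.16 ± 0.45) and Gbp3. In adult ER+ cells Ifi27l2a rested on 3 and 3 reads and Rsad2 on 5 and 12. The count was 4 without the puberty library of replicate 1 and 6 without the adult library of replicate 2. When the compared groups were fitted alone, on 2 residual degrees of freedom, limma called 0 members in each luminal population, with an unadjusted p under 0.05 for 32 in ER- and 23 in ER+ cells.

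In basal cells, whose adult and puberty libraries belong to the same set, 6 genes were lower in adults (4.58% of all genes) and none was higher (5.15%), with a median of -0.51, against 0.02 over all genes. They were Ifi27l2a (-3.12 ± 0.50, adjusted p = 0.00186), Usp18 (-1.74 ± 0.32, adjusted p = 0.00447), Rsad2 (-1.71 ± 0.50), Oasl2 (-1.49 ± 0.34), Oas1a (-1.46 ± 0.44) and Xaf1 (-1.04 ± 0.31). The count was 2 without either puberty library or without the adult library of replicate 2, 11 by edgeR and 14 by DESeq2 on recovered reads, and both of these tools called 0 higher. An unadjusted p under 0.05 with a higher estimate was found for 3 genes in basal cells and for 0 in ER+ and ER- cells, where edgeR and DESeq2 called 0 higher as well. In all 3 populations Usp18, Rsad2 and Ifi27l2a were lower in adults, of 21 lower in any. At most 2.42% of all genes could be lower in all 3, the share lower in ER- cells. Counting libraries rather than tests, both puberty libraries lay above the 4 later ones for 24 members in basal cells (13.1% of all genes), 21 in ER+ cells (9.98%) and 30 in ER- cells (11.7%). The 13 genes called in none of the 6 comparisons with puberty were Irf1, Oasl1, Ifit2, Trim25, Mx1, Isg20, Gbp2, Gbp7, Parp9, Parp14, Dtx3l, Ifi27 and Lgals3bp. The 6 comparisons share the puberty libraries, so their agreement is not independent.

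**Figure D4:**
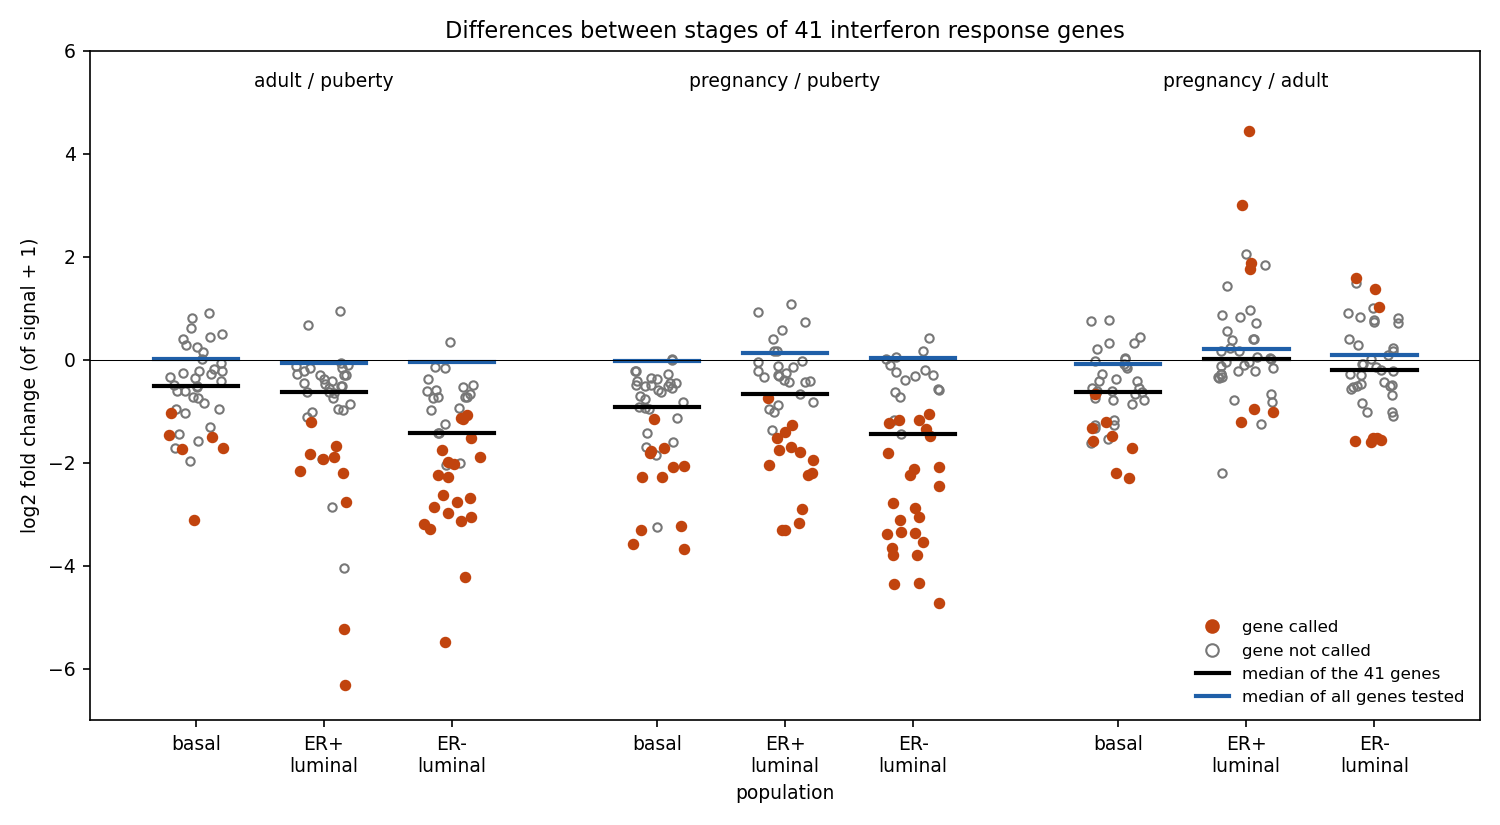
Log2 fold change (y axis, of signal + 1) of each of the 41 genes for adult against puberty, pregnancy against puberty and pregnancy against adult in each population (x axis), filled where called. Black bars are medians of the 41 genes and blue bars those of all genes tested. The black bar lies below the blue one in all 9 comparisons, by the most in ER- cells against puberty.

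Between pregnancy and adulthood, genes were called in both directions in luminal cells and only lower in basal cells. In ER+ cells 4 genes were called higher (12.8% of all genes), 1 of them (Ifit3b) with no direction that its reads could show, and 3 lower (5.05%), with a median of 0.01, against 0.21 over all genes. The higher ones were Cmpk2 (1.76 ± 0.40, adjusted p = 0.00665), Gbp3 (1.88 ± 0.45, adjusted p = 0.0108), Ifit2 (adjusted p = 0.0345) and Ifit3b. Ifit2 rested on 6 and 0 reads in adults, against 36 and 62 in pregnancy, a ratio of 6.48 of pregnancy over adult (95% exact counting interval 2.87 to 18.1). Ifit3b had 4 reads over both pregnancy libraries and 0 in adults, too few for a fold, and its estimate turned below 0 with adults at the floor. The lower ones were Samd9l (-1.20 ± 0.22), Usp18 (-1.02 ± 0.32) and Xaf1 (-0.96 ± 0.31). The ER+ count was 4 without the adult library of replicate 2 or the pregnancy library of replicate 1, 2 without the mixed pregnancy library of replicate 2, where Ifit2, Gbp3, Cmpk2 and Usp18 were no longer called, and 0 with the compared groups alone. In ER- cells Irf1, Cmpk2 and Bst2 were higher in pregnancy (8.89% of all genes) and 5 genes were lower (5.51%), namely Samd9l (-1.52 ± 0.22, adjusted p = 0.000666), Xaf1 (-1.59 ± 0.31), Usp18 (-1.52 ± 0.32), Oasl2 (-1.56 ± 0.34) and Ifi27l2a (-1.57 ± 0.50). Their median was -0.20, against 0.09 over all genes, and the count of 8 was 2 without the adult library of replicate 2. Samd9l, which restrains translation and cell growth, had 542 and 594 in pregnancy ER- cells against 1309 and 2024 in adults. In basal cells 8 genes were lower in pregnancy (4.34% of all genes) and none was higher (2.92%), with a median of -0.63, against -0.09. They were Zbp1 (-2.30 ± 0.46, adjusted p = 0.00948), Ifit1 (-2.19 ± 0.45), Mx2 (-1.72 ± 0.36), Usp18 (-1.57 ± 0.32), Isg20 (-1.48 ± 0.41), Ifih1 (the RNA sensor MDA5; -1.32 ± 0.30), Stat2 (-1.20 ± 0.28) and Trim25 (-0.67 ± 0.18). This count was 0 by limma without the adult library of replicate 2 (17 at an unadjusted p under 0.05) or the pregnancy library of replicate 1 (11), and 3 without the pregnancy library of replicate 2. With all libraries edgeR called 9 lower and 0 higher and DESeq2 11 lower and 0 higher, and no gene had a higher estimate at an unadjusted p under 0.05.

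The next comparison set ER+ against ER- luminal cells by the mean over the 3 stages. Of the 41 genes 18 were lower in ER+ cells (15.2% of all genes) and 3 were higher, Stat2, Usp18 and Isg20 (10.3% of all genes). The median was -0.42, against -0.11 over all genes. Among the lower ones were Ifi27l2a (-1.90 ± 0.29, adjusted p = 0.000163), Ifi44 (-1.49 ± 0.27, adjusted p = 0.0011), Cmpk2 (-1.41 ± 0.23) and Gbp3 (-1.22 ± 0.26, adjusted p = 0.00313). Ifit3b, Ifit2, Mx1 and Ifit3 had larger estimates (-2.65, -2.63, -2.54 and -1.73), but each had at least 1 adult ER+ library at 0, where the pseudocount sets the size. With the adult ER+ value at its floor Ifit3b was at -1.41. The 4 Ifit genes were all called lower in ER+ cells, with a median of -2.18, or -1.57 with Ifit3b at its floor. The difference went with stage. At puberty both ER+ libraries lay below both ER- libraries for 35 members (30.3% of all genes) and above them for 1, Isg20 (25.4%). In adults the counts were 22 below (27.6%) and 7 above (22.0%), and in pregnancy 11 below (25.9%) and 9 above (14.9%). Without the 6 puberty libraries 8 genes were called, 4 higher in ER+ cells (Stat2, Oas2, Usp18 and Isg20) and 4 lower (Ifit3b, Mx1, Cmpk2 and Ifi27l2a), without the puberty ER+ library of replicate 2 the count was 13, and without the mixed pregnancy ER+ library 20, with Isg15 no longer called. ER- luminal markers moved with this: in pregnancy ER+ cells 4 of 10 were higher and 1 lower than at puberty, and 7 higher and 0 lower than in adults, with sums of 31400 and 23397 at puberty, 11476 and 14065 in adults and 53788 and 126533 in pregnancy. Their part in the result was not tested.

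The difference between these populations in the change from puberty to pregnancy was tested itself. For 3 genes the change in ER+ cells was above that in ER- cells (1.47% of all genes), and for none was it below (0.847%). They were Zbp1 (3.04 ± 0.66, adjusted p = 0.0235), Oas1a (2.49 ± 0.63, adjusted p = 0.0491) and Oasl2 (2.14 ± 0.49, adjusted p = 0.0356). Zbp1 had 365 and 207 in pregnancy ER+ cells against 233 and 254 at puberty, and 88 and 166 in pregnancy ER- cells against 621 and 1272 at puberty. Oas1a had 135 and 133 in pregnancy ER+ cells against 290 and 210 at puberty, and 41 and 91 in pregnancy ER- cells against 539 and 765 at puberty. In ER- cells the pregnancy libraries of both genes were far below those of puberty, while in ER+ cells those of Zbp1 overlapped. The count was 1 without either the puberty ER+ library of replicate 1 or the pregnancy ER+ library of replicate 2, 5 without the pregnancy ER- library of replicate 2, and 0 without any of 4 libraries (puberty ER+ replicate 2, pregnancy ER+ replicate 1, puberty ER- replicate 2 and pregnancy ER- replicate 1). It was 6 by edgeR and 11 by DESeq2, with 16 at an unadjusted p under 0.05 in limma, all above 0. For basal against ER- cells limma called 0 members in the difference of changes, in either direction (0.430% of all genes above, 0.197% below), with 5 above and 0 below at an unadjusted p under 0.05, 1 called above by edgeR, 4 above by DESeq2, 0 below by either, and 1 by limma without the puberty ER- library of replicate 1. For basal against ER+ cells it called 0 (0.453% above, 1.18% below), with 5 below at an unadjusted p under 0.05, 0 by edgeR and 1 below by DESeq2. So the larger fall of most members in ER- than in basal cells was not shown to differ.

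The same was done for basal against luminal cells. Of the 41 genes 22 were lower in basal cells (21.5% of all genes) and 8 were higher (20.9%). The median was -0.52, against -0.03 over all genes. The higher ones were all 4 Ifit genes, among them Ifit3 (1.93 ± 0.46, adjusted p = 0.00397) and Ifit2 (1.86 ± 0.63, adjusted p = 0.0356), with Irf1, Gbp3 (0.60 ± 0.23), Gbp7 (0.42 ± 0.15) and Samd9l (0.53 ± 0.11). The Ifit calls rested in part on the adult libraries: without the 6 adult libraries, Ifit1 was at 0.02 and Ifit3b at 0.06, uncalled, and Ifit2 (1.11) and Ifit3 (0.83) were called. Adult basal and adult luminal libraries belong to different sets of columns, so in adults this difference and the set cannot be told apart. The lower ones were led by Oas2 and Oas3 with Dhx58 (-1.16 ± 0.21, adjusted p = 0.000328) and Ifih1 (-1.0 ± 0.15, adjusted p = 9.2e-05), and took in 4 of 5 sensors and 4 of 5 oligoadenylate synthetases. Over the alternatives run the count of 30 lay between 20, without the 6 puberty libraries, and 33, and was 28 without the mixed pregnancy ER+ library.

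Other genes of the pathway were read from lists. The interferon ligands were scarcely detected: of 12 ligand genes 2 passed the filter (Ifnb1 and Ifnk), 4 were at 0 in every library, and the summed signal of the 12 lay between 0 and 49. The beta interferon gene Ifnb1 had at most 14 in any library. The receptor gene Ifnar1 was called in none of the 6 comparisons with puberty, with estimates from -0.52 to 0.16. Ifngr1, of the interferon gamma receptor, was lower in adult than in puberty ER+ cells (-1.11 ± 0.22, adjusted p = 0.00649). Of 44 other interferon-stimulated genes, 22 were lower and 2 higher in pregnancy than at puberty in ER- cells (6.04% and 8.78% of all genes). In ER+ cells 16 were lower and 1 higher (5.73% and 7.34%), and in basal cells 5 lower and 1 higher (1.4% and 0.668%). Their medians were -0.99, -0.86 and -0.75 in that order. The oligoadenylate synthetase gene Oas1g (4 and 38 in pregnancy against 216 and 332 at puberty), Apol9b (27 and 68 against 349 and 520) and the helicase gene Ddx60 (226 and 323 against 1798 and 2275) show the pattern in ER- cells outside the 41 genes. Of 14 GTPase genes induced by interferon gamma, 2 were lower and 0 higher in pregnancy than at puberty in ER- cells (6.04% and 8.78% of all genes). In basal against luminal cells 8 of them were higher (20.9% of all genes) and 0 lower (21.5%), among them Tgtp2 (2.35 ± 0.54, adjusted p = 0.00345). Of 18 genes for nucleic acid sensing upstream of interferon, 2 were lower and 3 higher in pregnancy than at puberty in ER- cells (6.04% and 8.78% of all genes).

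The 19 immune cell markers summed to 5503 to 5810 in pregnancy ER- cells, 2298 to 3892 in adult ER- cells and 1415 to 1822 in puberty ER- cells, the group where the interferon response genes were highest. All 19 passed the filter. In pregnancy against puberty 0 fell and 3 rose in ER- cells (6.04% and 8.78% of all genes). In ER+ cells 0 fell and 1 rose (5.73% and 7.34%), and in basal cells none was called (1.4% and 0.668%). In basal cells of puberty and of pregnancy the immune sums were higher in replicate 2, as most interferon response genes were. They were 1221 and 5149 at puberty and 3479 and 7221 in pregnancy. In ER- cells of these stages the immune sums were lower in replicate 2, at 1415 and 5503, where most interferon response genes were higher. Sums are set by the markers with the most signal. By the mean log2(signal + 1) of the 19 markers, pregnancy ER- cells had 6.18 and 6.35, so replicate 2 was the higher. By that mean puberty ER- cells had 5.84 and 4.78 and adult ER- cells 4.93 and 5.54, so these stages overlapped. Over the populations the immune cell markers did run with the genes in part. In ER+ against ER- cells 7 were lower and 0 higher (15.2% and 10.3% of all genes). In basal against luminal cells, where most called interferon response genes were lower, 7 were higher and 0 lower (20.9% and 21.5%). Siglech, a marker of plasmacytoid dendritic cells, the main makers of type I interferon, had 3 to 28 in the puberty libraries and 0 to 27 in the later ones. A list of 14 genes that cell dissociation induces summed to 168698 to 254489 in pregnancy ER- cells and 344067 to 468827 in puberty ER- cells. In pregnancy against puberty 6 of them fell and 0 rose in ER- cells (6.04% and 8.78% of all genes). In ER+ cells 4 fell (5.73%) and in basal cells 2 (1.4%). Basal markers rose in pregnancy against puberty in luminal cells, 6 of 10 in ER+ (7.34% of all genes) and 5 of 10 in ER- cells (8.78%). In adults against puberty, fibroblast markers had a median of -2.06 in ER+ cells (2 of 7 lower, 0 higher) and -0.74 in ER- cells (0 called by limma), and endothelial markers -2.90 (1 of 8 lower) and -2.69 (0 called). Of all genes, 4.5% were lower and 1.22% higher in this comparison in ER+ cells, and 2.42% and 1.24% in ER- cells. Fibroblast markers summed to 15854 and 72890 in puberty ER- cells and endothelial markers to 7686 and 1254, so of these the fibroblast sum was the higher in replicate 2, as most interferon response genes were. The part of these genes in the results was not tested.

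**Figure D5:**
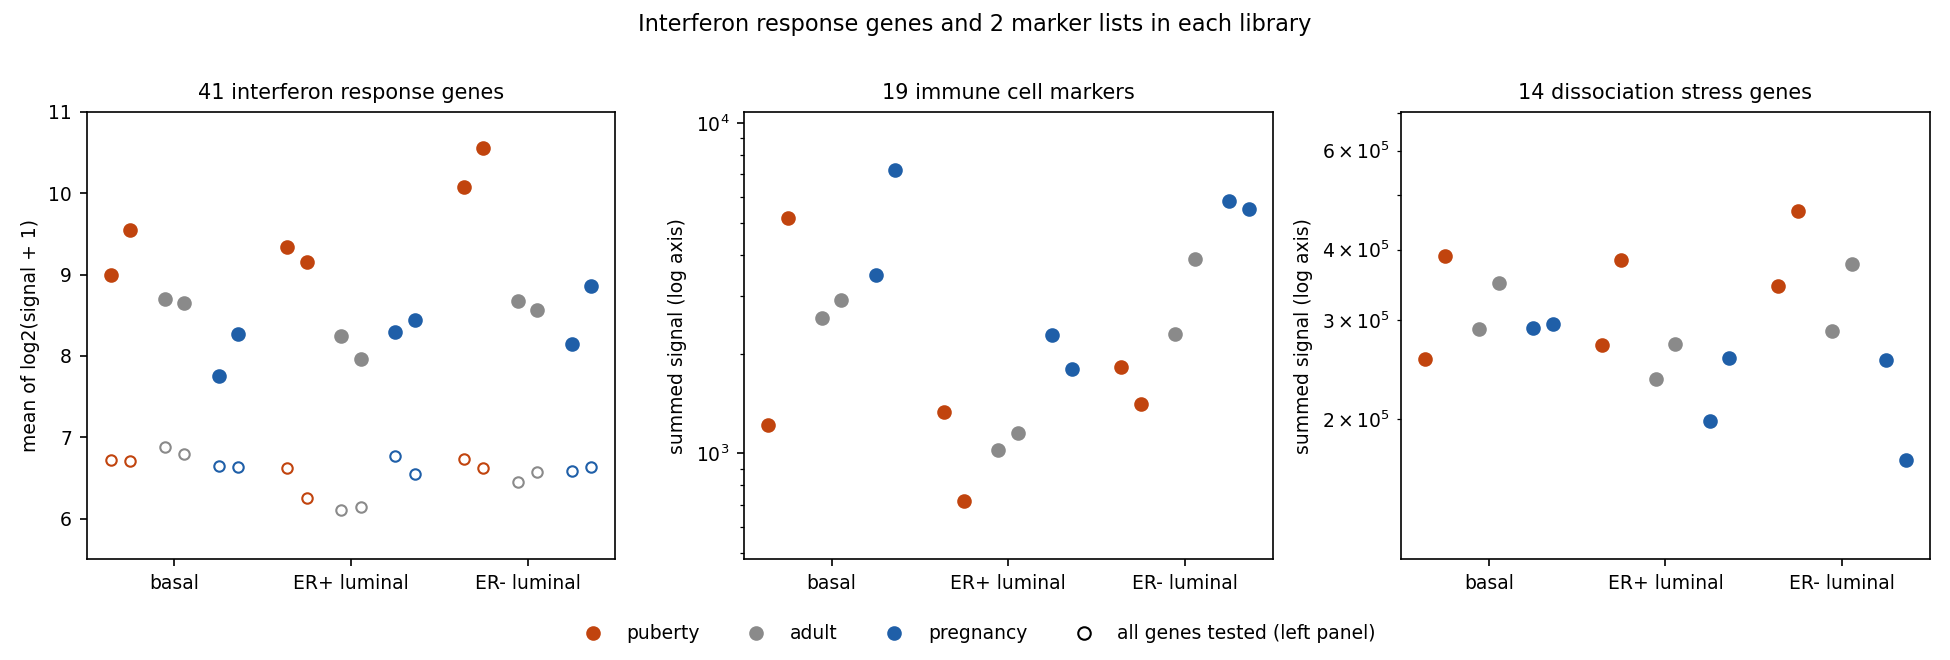
Mean log2(signal + 1) of the 41 genes in each library (left panel, open circles for all genes tested) and, on log axes, the summed signal of 19 immune cell markers (middle) and 14 dissociation stress genes (right). The puberty ER- libraries are highest on the left, at 10.08 and 10.55, while their immune marker sums are 1822 and 1415.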

How the data were processed

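RNA from sorted cells was extracted with the RNeasy micro kit and made into libraries with Ovation Solo RNA-seq, per the labels' protocols. STAR, Picard and HTSeq and the build GRCm38/mm10 are named in the submitters' processing notes, without versions. The authors deposited 1 table of 46868 rows and 46257 gene IDs, whose signal was whole read counts scaled to a common total. Dividing by the lowest step gave whole reads for 99.8% to 99.9% of values per library. Of the IDs, 179 were repeated, over 790 rows. No member was among them.

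Genes with a signal of at least 10 in at least 2 libraries were kept. The signal was tested as log2(signal + 1) with limma 3.58.1 in R 4.3.3, in 1 fit over the 9 groups with 9 residual degrees of freedom, for 14 comparisons. A gene is called at a Benjamini-Hochberg adjusted p under 0.05 over all 22315 genes. Fold changes on this scale understate the change of genes low in every library, and overstate it where a library of low depth is at 0, since 1 read there was worth up to 8.25. Alternative count tests on the recovered whole reads used edgeR 4.0.16 and DESeq2 1.42.0. Other alternatives were the pseudocount, the filter, the normalization, a replicate term, the compared groups alone and each library left out. The fit was tested on simulated data. Gene positions came from GENCODE for GRCm38 (41 of 41 members matched).

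Values per library are given for 18 members picked by name with earlier results known, in full except for Mx1. Per comparison, estimates are given for up to 6 called members with the largest fold change. The members and 12 gene lists with 183 genes were chosen with earlier results of these data known.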

Additional observations from a re-analysis of the deposited data

Results flagged for a closer look

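The change from puberty to pregnancy differed between ER+ and ER- luminal cells for 3 genes, by the interaction term of the limma fit. Zbp1 differed by 3.04 on the log2 scale (ER+ minus ER-, adjusted p = 0.0235). It was also called by edgeR and DESeq2, and was lost without the puberty ER+ library of replicate 2, the pregnancy ER+ library of replicate 1, the puberty ER- library of replicate 2 or the pregnancy ER- library of replicate 1. Oasl2 differed by 2.14 (adjusted p = 0.0356) and was lost with the compared groups alone and without 6 of the 8 libraries in turn. Oas1a differed by 2.49 (adjusted p = 0.0491) and was lost with a pseudocount of 0.5, without the filter, after quantile normalization and without 7 of the 8 libraries in turn.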

How the results depend on the processing

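Counts of called genes among the 41 are given for each alternative that moved them by over 1.5 times. Leaving out 1 library at a time gave 13 to 23 for ER+ against ER- cells (21 with all), 23 to 31 for basal against luminal cells (30), 8 to 11 (15) in ER+, 13 to 24 (25) in ER- and 4 to 8 (12) in basal cells for pregnancy against puberty, 2 to 8 (7), 2 to 8 (8) and 0 to 6 (8) for pregnancy against adults, 4 to 8 (10), 7 to 16 (21) and 2 to 4 (6) for adults against puberty, and 0 to 5 (3), 0 to 1 (0) and 0 to 0 (0) for the differences of changes ER+ minus ER-, basal minus ER- and basal minus ER+. The groups compared alone gave 0, 1 and 4 for pregnancy against adults in ER+, ER- and basal cells (12 in ER+ at an unadjusted p under 0.05) and 0, 0 and 1 for adults against puberty. Without the puberty libraries ER+ against ER- cells had 8. Without the filter, pregnancy against adult ER+ cells had 4. edgeR gave 11 for adult against puberty basal cells, 6 for ER+ minus ER- and 1 for basal minus ER-. DESeq2 gave 20 for pregnancy against puberty basal cells, 14 for adult against puberty basal cells, 11 for ER+ minus ER-, 4 for basal minus ER- and 1 for basal minus ER+. Median-ratio scaling gave 5 for ER+ minus ER-, and pseudocount 8, a stricter filter, quantile and median-ratio scaling and the compared groups alone gave 1 each for basal minus ER-. The cause was not tested, other than that these fits use fewer samples where libraries are left out. Of 1900 alternatives for 108 named values 1588 stayed called, 312 were no longer called and 0 reversed.

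Same-numbered samples of 36 pairs of groups had deviations correlated from -0.09 to 0.27. The 1 pair over 0.1 was puberty ER+ with puberty ER- luminal cells (0.27). Endothelial markers summed there to 7597 and 571 in ER+ and to 7686 and 1254 in ER- libraries. Whether same-numbered puberty luminal samples shared a preparation was not tested, and the main fit models no pairing. With the replicate block, ER+ minus ER- had 6 and basal minus ER- 1.

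After quantile normalization the median of all genes was 0.03 for ER+ against ER- cells (-0.11 as deposited; 3101 higher and 2729 lower, against 2305 and 3386), -0.05 for pregnancy against puberty in ER+ cells (0.13; 1544 and 1715, against 1637 and 1279) and -0.11 for pregnancy against adults in ER+ cells (0.21; 1896 and 1907, against 2865 and 1126), where the median of the 41 genes was -0.07 (0.01 as deposited). Median-ratio scaling moved it to -0.11 for pregnancy against puberty in ER- cells (0.03; 1503 and 1962, against 1960 and 1347). Depth limits the adult luminal libraries most.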

Other observations

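Outside the comparisons above, the receptor and signalling genes of the pathway went in both directions between populations. Of 17 such genes 4 were higher and 3 lower in ER+ than in ER- cells (10.3% and 15.2% of all genes). In basal against luminal cells 3 were higher and 8 lower (20.9% and 21.5%). In the difference between pregnancy and puberty, 5 were lower and 2 higher in ER- cells (6.04% and 8.78% of all genes). In ER+ cells 5 were lower and 0 higher (5.73% and 7.34%), and 0 were called in basal cells by limma (1.4% lower and 0.668% higher).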
